A study of Mus musculus with 8 samples.

Results

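A 500 kb window of chromosome 17, from 34150000 to 34650000 on the mouse build mm8 (as are all coordinates), was examined in mouse bone marrow-derived macrophages. The window was chosen by measured values: it holds the H3K4me3 cluster 34464918 to 34472188, which was listed 4 h after stimulation and not in untreated cells. All listed positions and clusters inside it were taken, 386 of the 364537 in the 8 deposited lists. The window had been named for 6 genes of antigen presentation, H2-Aa, H2-Ab1, H2-Eb1, Psmb8, Psmb9 and Tap1, and the check of that name given next went against it.

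The macrophages came from marrow of female Fvb mice, 6 to 8 weeks old according to the labels. The cells were left untreated (0 h) or given lipopolysaccharide, a component of the outer membrane of Gram-negative bacteria, together with interferon gamma. Interferon gamma is a cytokine that activates macrophages. Chromatin immunoprecipitation followed by sequencing mapped RNA polymerase II (Pol II) at 0, 2 and 4 h, the histone marks H3K4me3 and H3K27me3 at 0 and 4 h, and Jmjd3 at 2 h. The labels also name fetal livers as a source of cells without tying them to a library, and do not say whether cells of several mice were pooled. With 8 libraries for 8 pairs of antibody and time, differences between times have no replicate check and were not tested. Macrophage marker genes were not checked, because gene positions on mm8 are not analysed here.

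Pol II transcribes protein-coding genes, and its listed positions mark where it was concentrated, at starts and along transcribed stretches. H3K4me3 marks the starts of active or poised genes, and H3K27me3 is the Polycomb mark of silenced chromatin. Jmjd3 is a demethylase that can remove H3K27me3 and is induced in macrophages by inflammatory signals. Among the 6 genes of the window's name, H2-Aa and H2-Ab1 encode the chains of the class II molecule I-A and H2-Eb1 a chain of I-E, Psmb8 and Psmb9 encode subunits of the immunoproteasome, and Tap1 encodes a subunit of the peptide transporter of the endoplasmic reticulum.

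Whether the window holds those 6 genes was checked from the spacing of marks. Gene starts of chromosome 17 in RefSeq (assembly GRCm38.p6, another build than mm8) were moved by 1 common shift, in steps of 1000 bp up to 3.0 Mb either way, and H3K4me3 clusters of untreated cells that held a gene start were counted over the window and 2.0 Mb on each side. The best shift placed a gene start in 75 of 155 clusters (48.4%). The median over 6001 shifts was 20 clusters, and the highest count more than 10 steps from the best shift was 38. At the best shift none of the 5 named genes that the table holds (all but H2-Ab1) lay in the window. Among the 382 shifts that put all 5 inside it, the highest count was 32 of 155 (20.6%). In the 23 clusters of the window alone the check did not separate the placements, with 11 at the best shift and up to 10 with all 5 genes inside. A common shift allows for no sequence added or removed between builds, and no gene was placed by it. The region is therefore called the chromosome 17 window, no peak is ascribed to a gene, and no value is given for H2-Aa, H2-Ab1, H2-Eb1, Psmb8, Psmb9 or Tap1.

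The only value in the files is the overlap count at each position or cluster, which the authors gave without scaling as far as the headers say; it is called the count. The labels give more than 10000000 uniquely mapped tags for a library, and exact depths were unknown. Counts are therefore ranked only within their own list and set side by side between times. Single positions were given 500 bp windows, entries sharing at least 1 bp were called shared, and an entry without a shared partner at the other time was called absent there. The lowest count differed between lists. It was 9 for Jmjd3 and for untreated H3K27me3 and Pol II, 10 for stimulated H3K27me3 and for Pol II after 2 h, and 11 for the other 3 lists.

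The window was dense in marks. H3K4me3 had 23 clusters in untreated cells and 19 after 4 h. Pol II had 80, 73 and 80 positions in order of time, H3K27me3 had 45 and then 65, and Jmjd3 had 1. The median of the 5143 tiles of 500 kb along all chromosomes was 2 entries for each H3K4me3 and Pol II list, 2 and 4 for H3K27me3 at 0 and 4 h, and 0 for Jmjd3. In untreated cells, 99.0% of tiles held fewer H3K4me3 clusters than the window, 98.3% fewer Pol II positions and 92.6% fewer H3K27me3 positions. For Jmjd3 the share was 65.2%.

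**Figure D1:**
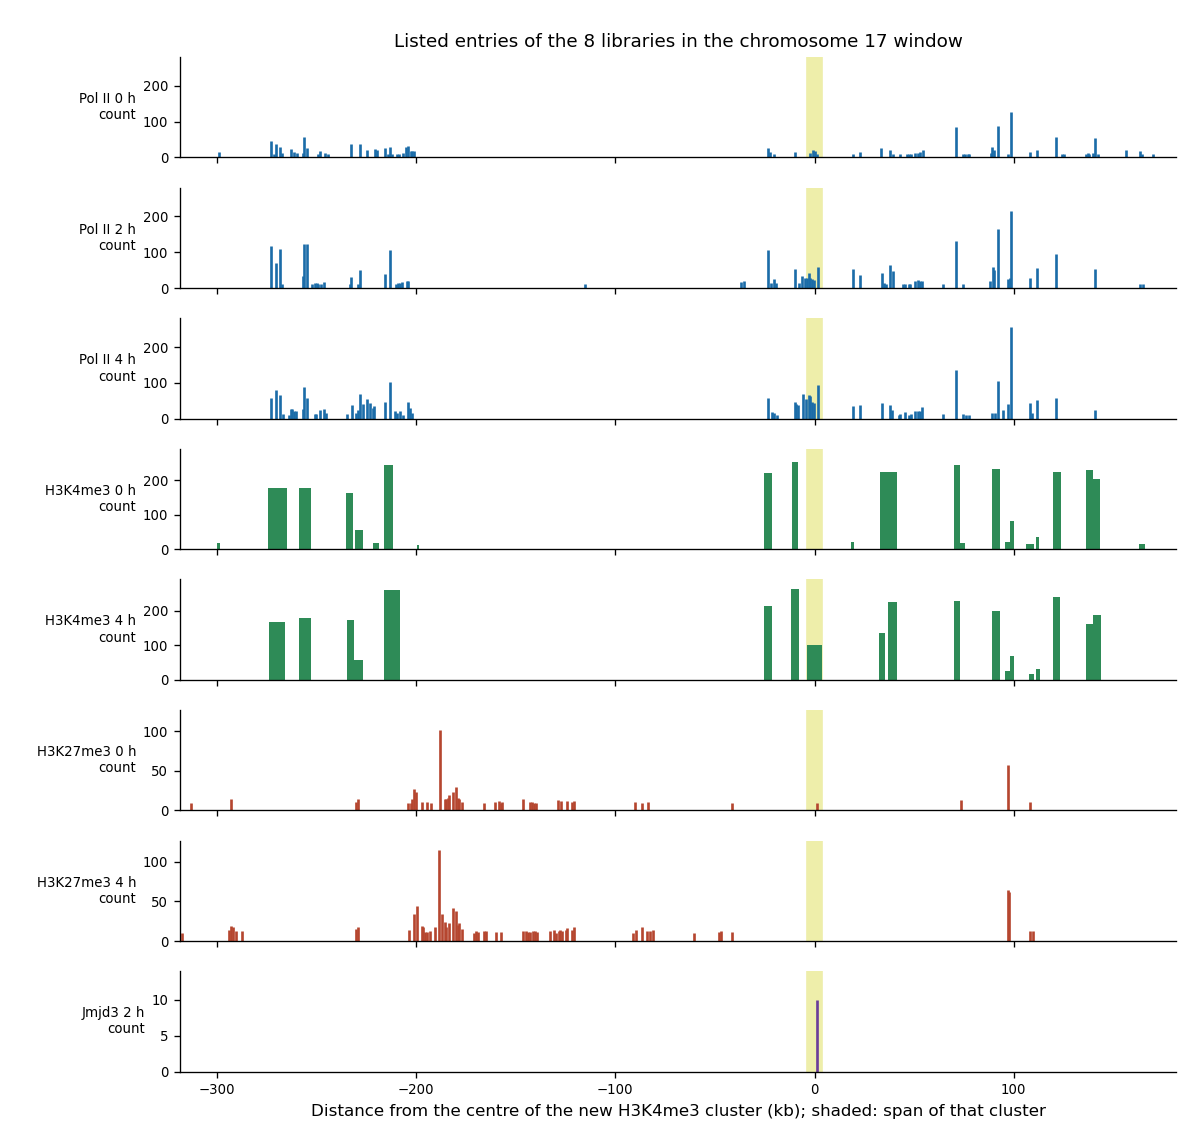
Count of every listed entry of the 8 libraries (vertical axes, unscaled overlap counts, 1 range per antibody) against distance in kb from the centre of the H3K4me3 cluster listed at 4 h and not at 0 h (shaded). Pol II and H3K4me3 lie in a left and a right group. Most H3K27me3 positions lie in the 173.1 kb between them, more densely in its left part and sparsely in its right part. The Jmjd3 position lies in the shaded cluster.

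Marks fell into 3 parts along the window. Between 34270153 and 34443255, a stretch of 173.1 kb, no H3K4me3 cluster was listed at either time. H3K27me3 had 32 positions in it at 0 h and 50 at 4 h, beside 59684 and 89093 in the whole lists, so no gain is drawn from these numbers. The H3K27me3 positions were denser in the left part of the stretch, and none lay from 34350000 to 34370000 at either time. Pol II had no position in the stretch at 0 h, 3 at 2 h and none at 4 h. The 120.2 kb to the left held 33, 25 and 36 Pol II positions at 0, 2 and 4 h beside 9 and 11 of H3K27me3. The 206.7 kb to the right held 47, 45 and 44 of Pol II beside 4 and 4 of H3K27me3. These bounds were set by the H3K4me3 clusters after the lists had been seen. The left bound is the end of the cluster 34268769 to 34270153, which had a count of 13 at 0 h and was absent at 4 h. Without this low cluster the stretch would begin at 34260410. It would then hold Pol II at 0 and 4 h as well, for example at 34264512 and 34264421.

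The cluster that chose the window was 7271 bp wide with a count of 101 at 4 h. The median width of all H3K4me3 clusters at 4 h was 2870 bp, and 96.2% of them were narrower. Among the 995 clusters of 4 h that were absent at 0 h, 3 had a higher count and 6 were wider. The nearest H3K4me3 clusters of untreated cells ended 4885 bp to its left and began 14893 bp to its right. These values describe the choice and are no test of it.

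Pol II was already listed inside the span of that cluster before stimulation. Untreated cells had 4 positions there, 34466212 with a count of 12, 34467581 with 21, 34468837 with 19 and 34469680 with 10. The highest of the 4 was above 70.0% of its list. At 2 h there were 5 positions, with counts of 43, 29, 24, 22 and 58 from left to right, the last at 34470178. Within the list of 2 h these were above 77.4%, 68.5%, 62.7%, 59.6% and 82.4%, so not all ranked higher than the highest of 0 h. At 4 h there were again 5, with counts of 65, 62, 46, 44 and 93, the last at 34470250. Every one of the 5 counts at 4 h was above every count at 0 h, and 91.3% of the Pol II list of 4 h was lower than the last. Summed over the span, listed counts were 62 at 0 h, 176 at 2 h and 310 at 4 h, beside list medians of 14, 17 and 19.

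To the left of the cluster, Pol II appeared where untreated cells had none. The 4884 bp between it and the preceding H3K4me3 cluster of 0 h held no Pol II position at 0 h. At 2 h it held 4, at 34460646, 34462081, 34463657 and 34464706, with counts of 13, 35, 27 and 28. At 4 h it held 3, at 34460348, 34462785 and 34464154, with counts of 39, 68 and 55. Both later times thus listed Pol II between the clusters as well as in them. The first of each, 34460646 and 34460348, lay in the part that the preceding cluster had gained by 4 h.

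The preceding H3K4me3 cluster was tall at both times, above 98.2% of the list at 0 h and 98.7% at 4 h. It spanned 34457401 to 34460033 at 0 h, with a count of 253, and 34456542 to 34460862 at 4 h, with a count of 264. Its width was 2633 bp and then 4321 bp, 1.64 times as wide. The Pol II position in it, at 34458537 with a count of 14 at 0 h, was listed at 34458525 with 52 at 2 h and at 34458520 with 46 at 4 h, and a further position of 4 h lay at 34459103 with 42.

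**Figure D2:**
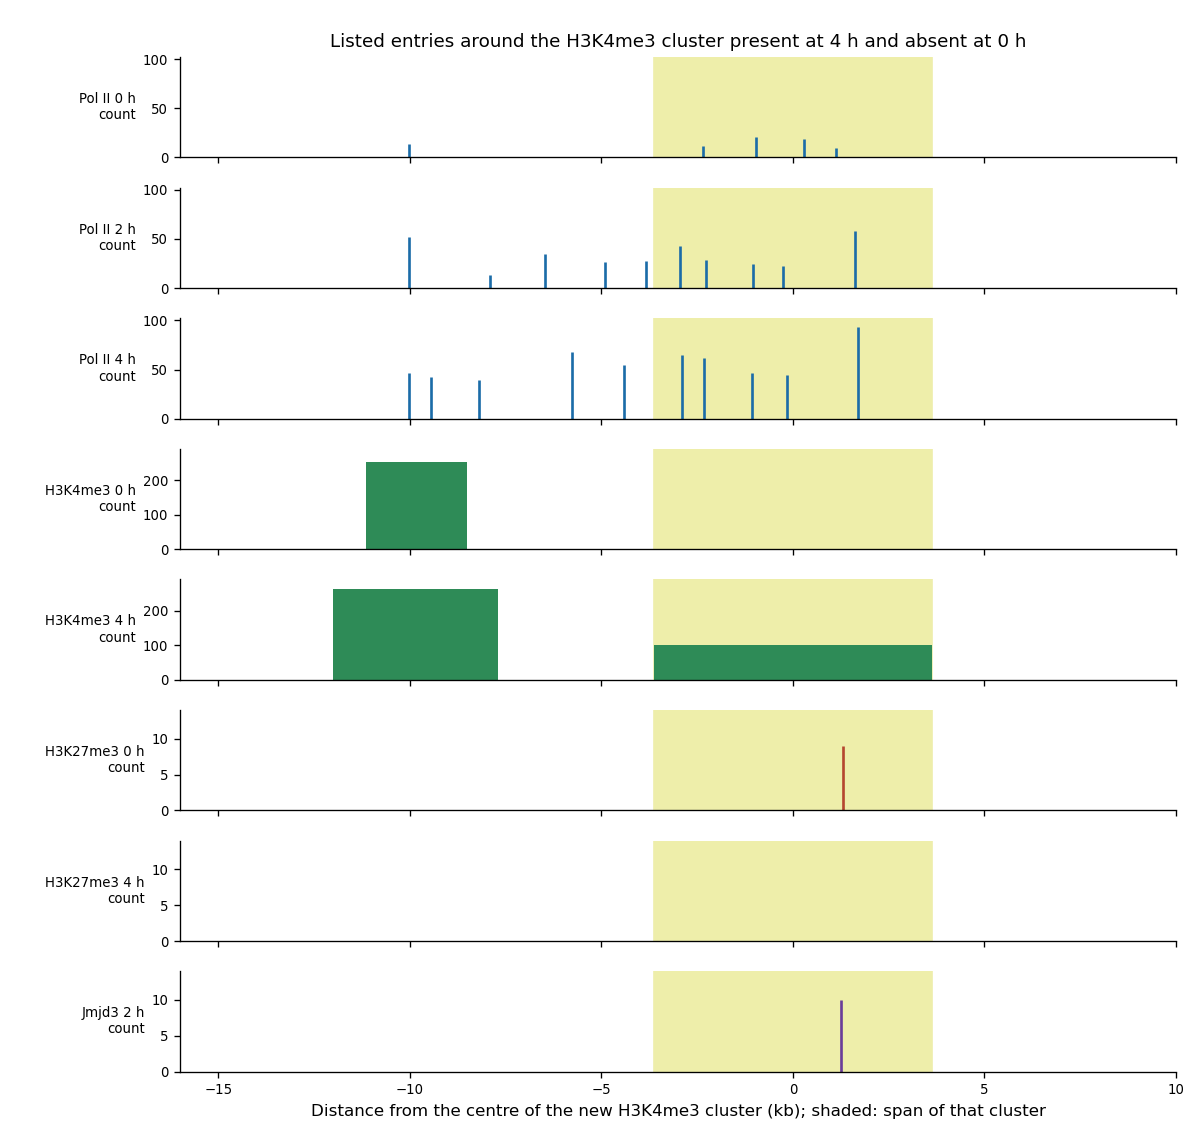
The same counts within 16 kb to the left and 10 kb to the right of the new H3K4me3 cluster's centre (horizontal axis in kb, vertical axes in unscaled overlap counts). Pol II has 4 positions in the shaded cluster at 0 h, with counts of 10 to 21. At 2 h it has 5 with counts of 22 to 58, and at 4 h 5 with counts of 44 to 93. Between the shading and the H3K4me3 cluster of 0 h to its left, Pol II appears in the rows of both later times alone.

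The single Jmjd3 position of the window, 34469808, lay inside the new cluster. Its count was 10, and of the 4398 Jmjd3 positions 1426 were lower, 850 had this count and 2122 were higher. The next Jmjd3 positions were 655 kb to the left and 185 kb to the right. It overlapped Pol II at 0, 2 and 4 h, at distances of 128, 370 and 442 bp, as did 67.0%, 80.7% and 78.6% of all Jmjd3 positions. It overlapped H3K4me3 at 4 h and not at 0 h, and 84.0% and 83.3% of all Jmjd3 positions overlapped each. For the window's position both follow from its place inside the cluster that chose the window, so they cannot be compared with these shares.

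An H3K27me3 position of untreated cells, 34469854, lay 46 bp from the Jmjd3 position, and 12.0% of all Jmjd3 positions overlapped H3K27me3 at 0 h. Its count was 9, the lowest in that list. No H3K27me3 position of 4 h overlapped it, and the nearest was 42643 bp away. The lowest count of the 4 h list was 10, so a position with a count of 9 would not have been listed there, and its absence cannot be told apart from this difference between the lists.

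Pol II was followed over the whole window next. Of 73 positions at 2 h, 27 were absent at 0 h (37.0%, exact 95% binomial interval 26.0 to 49.1, beside 49.6% of the whole list), and of 80 at 4 h, 26 were (32.5%, 22.4 to 43.9, beside 45.2%). Of the 80 positions at 0 h, 35 were absent at 2 h (43.8%, 32.7 to 55.3, beside 48.2%) and 26 at 4 h (32.5%, 22.4 to 43.9, beside 43.4%). Between the later times, 27 positions of 4 h were absent at 2 h (33.8%, 23.6 to 45.2, beside 32.3%), and 20 of 2 h were absent at 4 h (27.4%, 17.6 to 39.1, beside 32.0%). The Pol II list of 0 h stops early on 7 chromosomes, 17 among them, beyond the window. Without those chromosome ends, the list shares absent at 0 h were 48.5% for 2 h and 43.8% for 4 h, and all 6 list shares lay within the window's intervals. With the ends included, 49.6% and 45.2% lay above them, so no difference between window and list is drawn from these shares. The intervals cover counting error only, neighbouring positions are not independent, and all comparisons with 0 h share 1 library.

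The 3 tallest Pol II positions absent at 0 h lay inside the new H3K4me3 cluster or just to its left, at both later times. At 2 h the 3 tallest that were absent at 0 h were 34465601 (count 43, 611 bp from the nearest position of 0 h), 34462081 (35, 3544 bp) and 34464706 (28, 1506 bp). At 4 h they were 34470250 (93, 570 bp), 34462785 (68, 3427 bp) and 34465650 (65, 562 bp). The position 34470178 of 2 h lay 498 bp from one of 0 h and so counted as shared, while 34470250 at 4 h lay 570 bp from it and counted as absent. The call there rests on the 500 bp given to each position. The same holds for 34465601 of 2 h and 34465650 of 4 h, at 611 and 562 bp, which would be shared if 1 kb were allowed.

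The 3 tallest Pol II places of the window were the same at all 3 times and lay in H3K4me3 clusters listed at 0 and 4 h. The highest was at 34567228 at 0 h with a count of 127, and at 34567223 at 2 and 4 h with 214 and 255. Position 34560498 at 0 h had a count of 88, and its partners 34560457 and 34560454 had 164 at 2 h and 104 at 4 h. Position 34539476 had 84, with 131 at 34539466 and 136 at 34539471. Untreated counts in these 3 places were above 99.1%, 97.3% and 97.0% of their list. The new cluster's position 34470250 was the fifth tallest at 4 h and, as given above, counted as absent at 0 h. The others among the 5 tallest were 34212483 (58) and 34589943 (56) at 0 h, 34212457 (123) and 34213814 (122) at 2 h, and 34255315 (102) at 4 h, whose partners were 34255298 at 0 h with 28 and 34255304 at 2 h with 107.

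Grouping overlapping Pol II positions of the 3 times gave 119 regions in the window. Of these 43 (36.1%) were listed at all 3 times, beside 26.3% of the 93719 regions of all chromosomes. The regions of all chromosomes include the ends where the list of 0 h stops early, so no difference is drawn from any region share given here. Stimulated cells alone shared 10 regions between 2 and 4 h (8.4%, beside 14.6%), and 20 were found in untreated cells alone (16.8%, beside 21.0%). In 12 regions Pol II was missing from the 2 h list alone (10.1%, beside 6.81%). Some of the last kind lay where Pol II of 2 h had gaps. Between the neighbouring 2 h positions 34240404 and 34252928, 12.5 kb apart, were 3 positions of 0 h with counts of 20 to 25 and 5 of 4 h with counts of 30 to 56. Between 34201422 and 34211566, 10.1 kb apart, were 3 of 0 h with 13 to 25 and 5 of 4 h with 11 to 26. Both gaps began and ended in H3K4me3 clusters that held Pol II at all 3 times.

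At the right end of the window more Pol II was listed in untreated cells. The last 3 steps of 20 kb held 12 positions at 0 h, 3 at 2 h and 1 at 4 h, and 6 of the 12 had counts below 11, the lowest of the 4 h list. The tallest, at 34609177 with a count of 53 at 0 h, had partners at 34609182 with 52 at 2 h and 34609263 with 23 at 4 h, the only position listed there at 4 h. A position at 34625029 with a count of 22 at 0 h had no partner at either later time and was 6974 bp from the nearest. The H3K4me3 cluster 34604620 to 34608533 had a count of 228 at 0 h and was listed at 4 h from 34604839 to 34608537 with a count of 162. Pol II was listed in it at 0 h alone, at 34605068, 34605804, 34606420 and 34608229 with counts of 9, 12, 11 and 12. These lie near 10 and 11, the lowest counts of the 2 and 4 h lists, so they cannot show that Pol II was lost there.

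**Figure D3:**
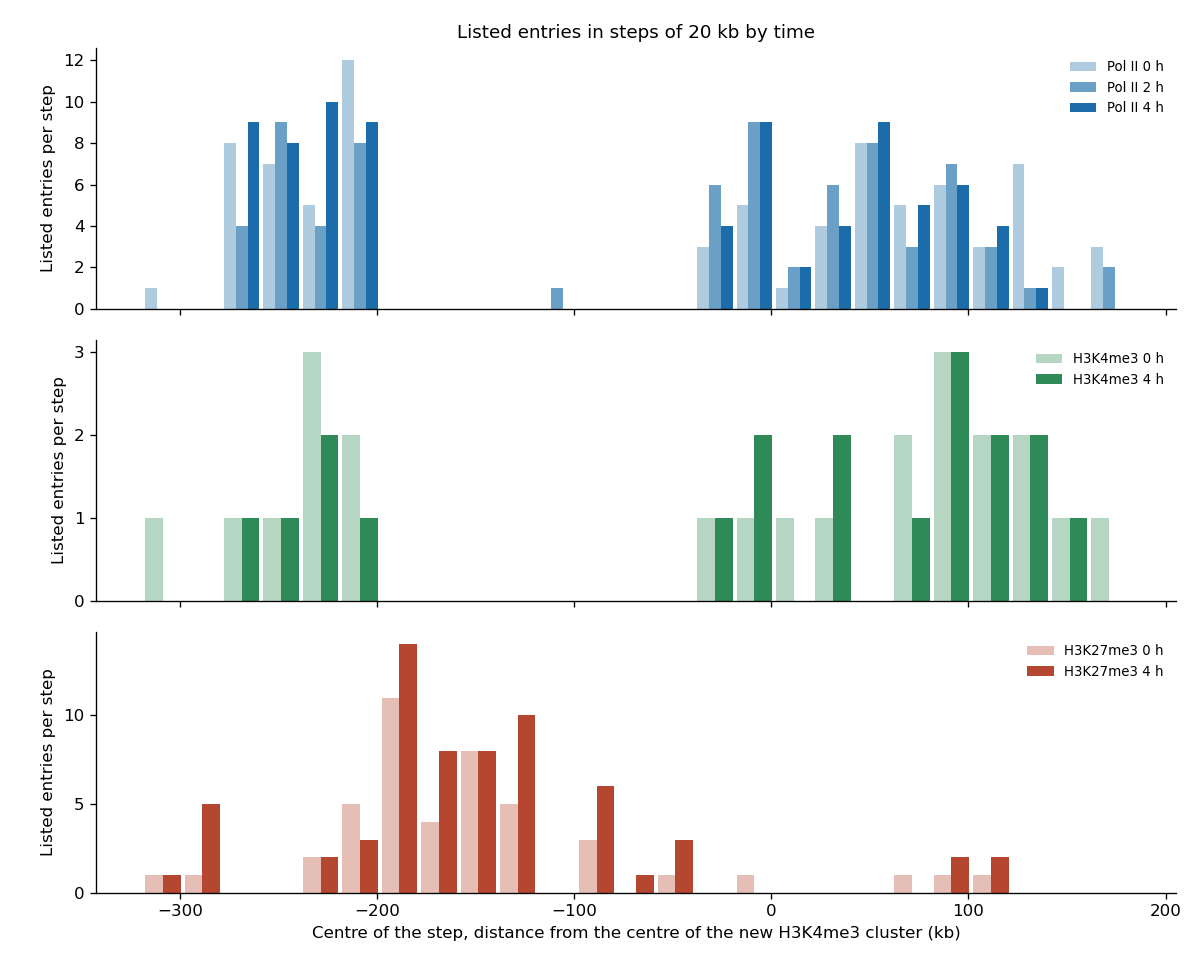
Number of listed entries in each 20 kb step (vertical axes) of Pol II, H3K4me3 and H3K27me3, with later times darker, against the centre of the step in kb from the centre of the new H3K4me3 cluster. Pol II rises from 5 to 9 entries in the step at -8.6 kb, which holds the cluster's centre. It falls from 7 to 1 in the step at 131.4 kb. H3K27me3 reaches 14 entries at 4 h in the step at -188.6 kb.

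In steps of 20 kb, Pol II was listed in 16 of the 25 steps at 0 h, 15 at 2 h and 13 at 4 h, H3K4me3 in 15 at 0 h and 12 at 4 h, H3K27me3 in 14 and 13, and Jmjd3 in 1. All 3 Pol II times were listed in 13 steps, and 11 of these also held H3K4me3 at both times. In 8 steps H3K27me3 was listed at 4 h with no Pol II at any time. The step from 34450000 to 34470000, which holds most of the new cluster, had 5 Pol II positions with summed counts of 76 at 0 h, 9 with 273 at 2 h and 9 with 467 at 4 h. This was the highest sum of the 25 steps at 4 h. At 0 h the highest sum was 289 and at 2 h 558, both in the step from 34550000 to 34570000, which had 456 at 4 h. More Pol II positions at 4 h than at 0 h were listed in 8 steps and fewer in 5. A sum over listed positions moves with how many were listed, and the lists start at different lowest counts.

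Most H3K4me3 clusters of the window were listed at both times. Of 19 at 4 h, 18 overlapped a cluster of 0 h, and 1 (5.26%), the cluster that chose the window, did not. The choice of the window fixed this number at 1 or more, so it cannot be compared with the 5.07% of the whole list. Of 23 at 0 h, 5 were absent at 4 h (21.7%, 7.46 to 43.7), beside 13.1% of the list. The 5 were 34168574 to 34169962 with a count of 18, 34246781 to 34249823 with 18, 34268769 to 34270153 with 13, 34487081 to 34488323 with 20 and 34631577 to 34634532 with 15. All 5 were low, and the 18 kept clusters of 0 h had counts of 14 to 253 with a median of 191. Pol II was listed at 0 h in 4 of the 5, and at 4 h in 2 of them, 34246781 to 34249823 and 34487081 to 34488323. In the latter the Pol II counts were 10 at 34487732 at 0 h, 54 at 34487810 at 2 h and 34 at 34487802 at 4 h.

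Tall clusters filled both sides of the window. At 0 h the highest counts were 253 at 34457401 to 34460033, 243 at 34252289 to 34256931 and at 34538687 to 34541627, and 233 at 34557631 to 34561399. Next in height were 34604620 to 34608533 (228), 34588287 to 34592333 (224), 34501550 to 34509764 (222), 34443285 to 34447204 (221) and 34608557 to 34611965 (204). At 4 h their partners had counts of 264, 261, 228, 199, 162, 238, 136 and 226, 212, and 186 in that order, the cluster of 222 being listed as a pair. That cluster was 8215 bp wide at 0 h, and the pair of 4 h spanned 34501056 to 34504142 and 34505233 to 34509942. The median count in the window was 164 at 0 h and 173 at 4 h, beside 78 and 97 in the whole lists.

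Clusters of intermediate count were 34194416 to 34203504 (177 at 0 h and 166 at 4 h), 34209688 to 34215881 (178 and 180), 34233162 to 34237011 (164 and 173), 34566879 to 34568839 (83 and 70) and 34237841 to 34241667 (57 and 56). Low clusters listed at both times were 34579551 to 34581451 (36 and 32), 34564143 to 34566566 (20 and 25) and 34574820 to 34578639 (14 and 16). A low cluster of 0 h, 34541636 to 34544236 with a count of 18, overlapped only the edge of a tall neighbour at 4 h. In all 15 clusters with 1 partner each, the counts of both times were within 1.5 times of each other, and 7 were higher at 4 h. The pair at 34501550 to 34509764 and the edge overlap at 34541636 are not among the 15. Whether such differences exceed the spread between replicates cannot be told with 1 library per time.

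The widths of shared clusters differed most between times at 34252289 and at 34457401. In 15 clusters with 1 partner each, the width at 4 h over that at 0 h had a median of 1.01, and 8 were wider at 4 h. Over all chromosomes the median was 0.973 in 17651 pairs, and 44.8% were wider at 4 h. The largest ratio, 1.69, was at 34252289 to 34256931, which was 4643 bp wide at 0 h and ran to 34260410 at 4 h, at 7833 bp. Of all pairs, 96.6% had a lower ratio. The largest of 15 ranks high among single pairs by its selection, so nothing is drawn from this rank. The next largest ratio, 1.64, was that of the cluster to the left of the new one. The lowest, 0.614, was the low cluster 34574820 to 34578639. In the part that the 34252289 cluster gained, Pol II at 4 h was listed at 34257980, 34258970 and 34260256 with counts of 21, 16 and 22, and at 0 h at 34259011 and 34259861 with 9 each.

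**Figure D4:**
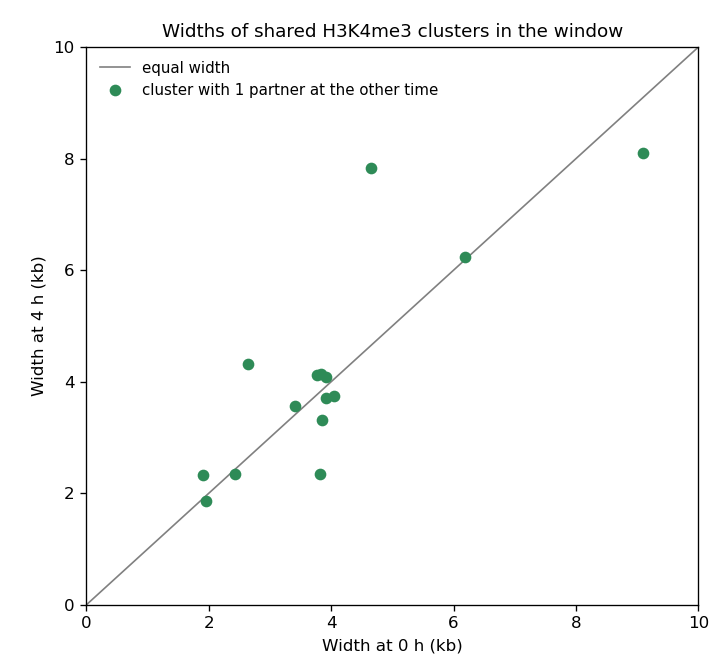
Width in kb at 4 h (vertical axis) against width at 0 h (horizontal axis) of the 15 H3K4me3 clusters of the window with 1 partner at the other time, with the line of equal width. Most lie near the line, and the clusters at 4643 and 2633 bp of 0 h lie farthest above it, at 1.69 and 1.64 times their width.

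Pol II accompanied nearly all H3K4me3 clusters, and H3K27me3 few. At 0 h 22 of 23 clusters (95.7%) overlapped Pol II of the same time, beside 60.4% of the whole list, and at 4 h 18 of 19 (94.7%), beside 63.7%. The list share of 0 h includes the 7 chromosome ends where Pol II at 0 h stops early. The window's clusters were also taller, with median counts of 164 and 173 beside 78 and 97, so no difference is drawn from these shares. H3K27me3 of the same time overlapped 4 clusters at 0 h (17.4%, beside 24.5%) and 3 at 4 h (15.8%, beside 27.6%), all of which also held Pol II. The 3 places with H3K4me3, H3K27me3 and Pol II at both times were 34237841 to 34241667, 34564143 to 34566566 and 34574820 to 34578639. In the second, H3K27me3 was at 34565639 with a count of 57 at 0 h and at 34565646 and 34566407 with 64 and 62 at 4 h, and Pol II was at 34565451, 34565543 and 34565595 with 11, 24 and 40 at 0, 2 and 4 h. The tallest Pol II position of the window, 34567223 at 4 h, lay in the neighbouring cluster 34566879 to 34568839, which held no H3K27me3 position.

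H3K27me3 had most of its positions in the stretch without H3K4me3, but several of its tallest lay outside it. Its tallest position was 34280312 at 0 h with a count of 101, above 99.8% of its list, and 34280194 at 4 h with 115, above 99.7%. It was followed at 0 h by 34565639 (57), 34288372 (29), 34267329 (27) and 34268467 (23), and at 4 h by 34565646 (64), 34566407 (62), 34268978 (44) and 34286983 (41). Of these, only 34288372 at 0 h and 34286983 at 4 h lay in the stretch. Positions within the stretch had a median count of 11 at 0 h and 13 at 4 h, beside 12 and 13 in the whole lists, so most were not tall. No position of the stretch from 34271295 to 34427240 overlapped Pol II or H3K4me3 at any time.

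Of the 65 H3K27me3 positions at 4 h, 32 were absent at 0 h (49.2%, 36.6 to 61.9), beside 51.7% of the whole list, and of the 45 at 0 h, 13 were absent at 4 h (28.9%, 16.4 to 44.3), beside 28.3%. The window's shares were close to those of the lists, whose lengths differ, at 59684 and 89093. Of the 13, 10 had a position of 4 h within 1 kb, and 12 of the 32 had one of 0 h. The 3 of 0 h beyond 1 kb were 34155318 (count 9), 34469854 (9) and 34541904 (13). A count below the lowest of the 4 h list was found in 5 of the 13. The position 34541904 was the only H3K27me3 entry at 0 h in the step from 34530000 to 34550000, overlapped the low H3K4me3 cluster 34541636 to 34544236, and was 23742 bp from the nearest position of 4 h.

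At the left edge of the stretch, Pol II and H3K27me3 were listed side by side. Between 34264512 and 34267427 untreated cells had 4 Pol II positions with counts of 33, 18, 17 and 18, all overlapping H3K27me3 of 0 h. At 2 h Pol II was listed at 34264447 with 19 and not again before 34353189, and at 4 h at 34264421, 34265490 and 34266482 with 47, 29 and 15. H3K27me3 had counts of 9, 9, 14 and 27 at 34264690, 34265773, 34266432 and 34267329 at 0 h, and of 14 and 34 at 34264774 and 34267357 at 4 h. No H3K4me3 cluster covered these positions at either time.

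**Figure D5:**
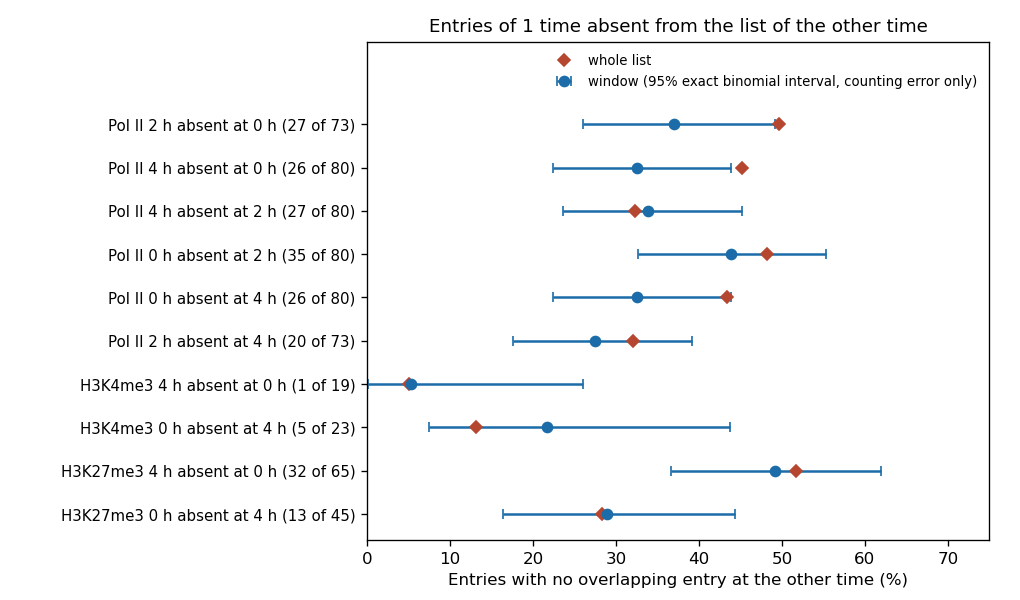
Percentage of the window's entries with no overlapping entry at the other time (circles, with exact 95% binomial intervals for counting error) and of the whole list (diamonds), for each list and time compared. The diamonds at 49.6% and 45.2%, for Pol II of 2 and 4 h absent at 0 h, lie just above the intervals and move to 48.5% and 43.8%, inside them, without the chromosome ends where the 0 h list stops early. For H3K4me3 of 4 h absent at 0 h, the window was chosen to hold such a cluster, so circle and diamond cannot be compared.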

How the data were processed

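Peak lists of 8 libraries were used as deposited. The deposited signal of each entry is a whole-number overlap count (in most lists headed as a maximum), and per the file headers the authors stated no scaling. According to the file headers H3K4me3 entries are clusters, and those of the other 3 antibodies are single positions. The submitters' processing notes name the build mm8. Aligner, peak caller, threshold and control: not given in the sources used here.

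Positions received 250 bp to each side, and a share of at least 1 bp counted as overlap. Clusters entered steps of 20 kb by their midpoint. Shares have exact Clopper-Pearson intervals at 95%. The regions named were the new cluster with its contents, all H3K4me3 clusters and Jmjd3 positions, the 5 tallest Pol II and H3K27me3 positions per time and the 3 tallest new Pol II positions. Other positions were chosen after their values were seen, as were the check of gene spacing and the 3 parts of the window. Window and lists were chosen with earlier results of these data known. A planned search of promoters for motifs was not run and further antigen presentation genes were not followed, since no gene was placed on mm8.

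Tools were Python 3.11.15 with pandas 2.3.3, numpy 2.4.6, scipy 1.17.1 and, for figures, matplotlib 3.10.9. Overlap counting recovered 600 of 600 planted overlaps among 2000 simulated positions and gave the numbers of bedtools 2.31.1 for 5 pairs of lists.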

Additional observations from a re-analysis of the deposited data

How the results depend on the processing

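Of 92 values recomputed under other settings of overlap, list length, height and step, 68 stayed within 1.5 times. All 10 with lists of equal length, all 8 with entries under 1 kb apart merged, all 8 with steps moved by 10 kb and all 10 shares of whole lists without the 7 chromosome ends where Pol II at 0 h stops early were among them. The last setting moved the list shares of Pol II absent at 0 h from 49.6% to 48.5% at 2 h and from 45.2% to 43.8% at 4 h, from above the window's intervals (upper bounds 49.1% and 43.9%) to inside them. Within 1 kb counted as shared, Pol II absent at 0 h was 15 at 2 h and 15 at 4 h, Pol II of 0 h absent at 4 h was 14, of 2 h absent at 4 h 10, and H3K27me3 absent was 3 of 0 h and 20 of 4 h. With only entries above their list's median count, which removes entries by construction, the window held 0 Jmjd3, 13 H3K4me3 at 0 h, 18 and 32 H3K27me3, and 39 and 45 Pol II entries at 0 and 2 h. Absent entries were then 13 and 9 of Pol II at 0 h (at 2 and 4 h), 9 of 2 h at 4 h, 1 of H3K4me3 at 0 h, and 6 and 20 of H3K27me3 at 0 and 4 h, and Jmjd3 overlaps could not be recomputed. With 50% of the shorter entry shared, the Jmjd3 position overlapped 3 of the 7 lists instead of 5. Steps of 10 kb with Jmjd3 were 2%, and steps of 50 kb with an entry were 10% for Jmjd3, 80% for H3K4me3 at 4 h, 90% for H3K27me3 at 0 h and 80% for Pol II at 4 h, beside 4%, 48%, 56% and 52% at 20 kb. The number of H3K4me3 clusters absent at 0 h was 1 under all 4 alternatives run. The window was chosen to hold this cluster, and the nearest cluster of 0 h was 4885 bp away, so this constancy is no test. No paired analysis was possible because each group has 1 library. Depth per library is unknown, so counts near a list's lowest cannot show presence or absence.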
